A study of Drosophila melanogaster with 2 samples.

Results

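The 292 regions described here were the strongest of a map of sites recovered with GFP-tagged espinas (esn) from white prepupae of Drosophila melanogaster, out of 10918 regions on the 6 chromosome arms. They were chosen by their signal value: every region of the reproducible list on the genome build dm6 whose signal reached 2000 was taken, and the 10626 remaining regions of that list served for comparison. The assay was chromatin immunoprecipitation followed by sequencing (ChIP-seq). The animals were whole prepupae of mixed sex from the strain esn-GFP, a transgenic line with GFP fused to the C-terminus of espinas, and the precipitating antibody was directed against GFP according to the sample description. Another label field gives esn for the antibody, so whether native espinas was also recovered is not settled by the labels. A single group was sampled as biological replicates 1 and 2, without an untagged group. The sources used here do not give the promoter or extent of the transgene, whether the native esn gene was intact, or how the animals of each replicate were raised, so the spread between replicates may be partly technical.

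The control libraries were not analysed here, so binding by espinas and recovery that does not depend on it cannot be told apart. Signal is the authors' value for each region, on a scale that is not stated and that differs between lists, and the depth is unknown. Regions of 1 list share their libraries and are not replicates, so shares below carry 95% Wilson intervals that cover counting error only, and no test was made over regions. Because the signal chose the regions, signal values are given as a description.

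Espinas belongs to the Prickle family, whose members carry a PET domain and LIM domains, modules that bind other proteins. Prickle acts in planar cell polarity, by which the cells of an epithelium are aligned with one another along the sheet. The white prepupa marks the onset of metamorphosis, when a pulse of the steroid ecdysone switches on a cascade of nuclear receptors and other transcription factors. Promoters of flies fall into broad classes: those of genes used by most cells often carry the DNA replication-related element (DRE) or the core promoter sequence called Motif 1, and those of regulated genes more often carry a TATA box or an Initiator.

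The strongest summits, a summit being the authors' position of highest signal in a region, are shown first because the values below refer to them. Each window reaches 50 bases to either side of the summit on the plus strand of dm6, and the letters are those of the RefSeq Release 6 genome. The 6 strongest regions with a sequence shown lay in the first intron of ush (chr2L:481018-481118), at the promoter of CG14100 (chr3L:19590572-19590672), at that of Ugalt (chrX:2703837-2703937), in an intron of CG11050 (chr2L:6612656-6612756), at the promoter of PNPase (chr3R:31404609-31404709) and in an intron of Lk6 (chr3R:11760998-11761098). Capitals mark matches, on either strand, to any of 26 short patterns that were searched, and patterns may overlap.
ush: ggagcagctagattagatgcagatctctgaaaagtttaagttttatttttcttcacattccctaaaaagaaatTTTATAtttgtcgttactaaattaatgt
CG14100: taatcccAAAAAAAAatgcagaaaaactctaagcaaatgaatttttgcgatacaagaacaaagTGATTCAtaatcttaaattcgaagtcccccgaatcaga
Ugalt: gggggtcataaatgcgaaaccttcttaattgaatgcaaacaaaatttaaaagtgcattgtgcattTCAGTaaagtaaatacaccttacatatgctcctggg
CG11050: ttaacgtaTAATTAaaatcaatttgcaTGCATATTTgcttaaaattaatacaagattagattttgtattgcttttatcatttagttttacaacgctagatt
PNPase: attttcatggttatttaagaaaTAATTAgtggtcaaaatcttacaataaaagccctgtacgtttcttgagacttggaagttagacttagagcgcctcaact
Lk6: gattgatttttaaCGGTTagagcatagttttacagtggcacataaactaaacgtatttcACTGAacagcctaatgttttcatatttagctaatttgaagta

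The patterns in capitals were found in the remaining list too. Within 100 bases of the summit, the TATA pattern TATAAA was found at 111 of the 292 strongest and 35.5% of the remaining summits. The Initiator letters TCAGT were at 105 of 292 against 35.1%, the homeodomain pattern TAATTA in 22.3% against 17.1%, and the downstream promoter element letters CGGTT in 14.7% against 18.4%. The AP-1 pattern TGANTCA was in 4.79% against 4.88%, the Suppressor of Hairy-wing pattern TGCATATTT in 1.71% against 1.20%, and the run AAAAAAAA in 12.3% against 17.2%. A match is a run of letters and not a binding site.

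The signal ran from 2005.61 to 8950.42, with a median of 2610 against 320 in the remaining list. The weakest chosen regions included those in introns of aop (2016.47), CG10936 (2012.66) and heph (2008.24). The others were an intergenic one 3339 bases from the start of CycB (2011.27) and the promoter shared by CG2698 and Kmn2 (2005.61). The coding start nearest to the summit in CG10936 was that of rhi, 7805 bases away. The strongest regions just below the threshold lay at the promoters of bin3 (1996.85), CG32115 (1994.27) and brwl (1979.47) and between genes. Those between genes were 5235 bases from the start of heca (1996.77) and 8054 bases from that of spel1 (1996.66). No gap in signal separated the sets, so the threshold cuts a continuous range. Outside the arms, the 18 regions of the mitochondrial genome reached at most 1957 and none was taken.

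Both replicates ranked the same regions high, which the way the list was made favours, since the authors derived it from both. All 292 regions overlapped a region in each replicate's list, as did 98.6% of the remaining ones. Of the 292, 273 (93.5%) were among the strongest 292 arm regions of replicate 1 and 86.0% were among those of replicate 2. In all, 232 (79.5%, interval 74.4 to 83.7) were among the strongest 292 of both, and 291 were within the strongest 584 of both. Ranks 1 and 2 went to ush and CG14100 in each replicate. The 10 strongest regions ranked no lower than 11 in replicate 1 and 13 in replicate 2. The replicates' summits lay a median of 9 bases apart (interval 8 to 11) in the strongest regions and 26 bases apart (25 to 27) in the remaining ones.

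**Figure D1:**
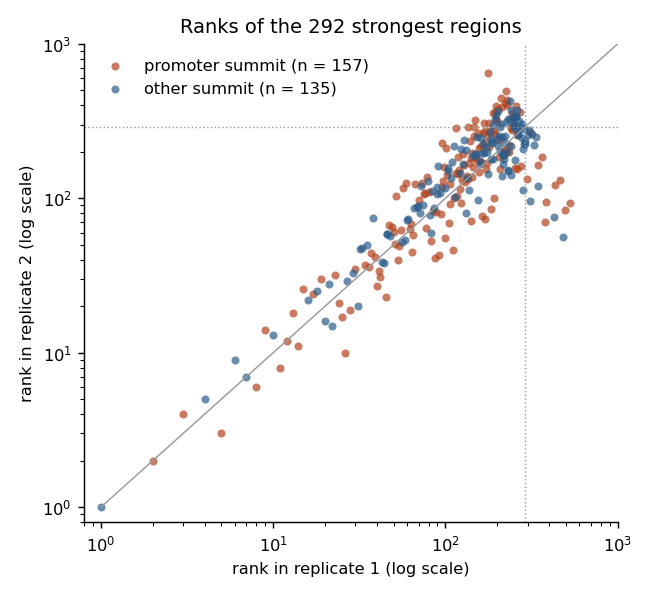
Each point is 1 of the 292 strongest regions, placed by its rank among the arm regions of replicate 1 (horizontal) and replicate 2 (vertical), both on log scales; colours separate promoter summits from others, the diagonal marks equal ranks and the dotted lines mark rank 292. The points lie close to the diagonal at the top of the list and spread near rank 292, where 232 regions fall inside both lines.

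The replicates disagreed most at 5 regions of modest signal. The promoter shared by RpS27, a ribosomal protein gene, and Nup37, a nuclear pore gene, ranked 178 in replicate 1 and 653 in replicate 2. The opposite held for the promoter of Kal1 (532 and 94), an intron of osa (481 and 56), the promoter shared by CG18428 and eIF4EHP (498 and 84) and an intron of LRP1 (428 and 76). RpL7, the other cytosolic ribosomal protein gene among the strongest, also ranked higher in replicate 1 (225) than in replicate 2 (495).

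Strong regions lay at promoters more often than the remaining ones did. A summit was placed at a promoter if a protein-coding transcript started within 500 bases of it, and 157 of the 292 (53.8%, interval 48.0 to 59.4) met this, against 4420 of 10626 (41.6%, 40.7 to 42.5). Introns held 98 (33.6%, 28.4 to 39.2) against 37.9%, and intergenic sequence held 30 (10.3%, 7.29 to 14.3) against 16.9%. The other 7 lay in an exon of a noncoding RNA or noncoding transcript (4), a 3′ UTR (2) or a 5′ UTR (1). Coding exons held 0 of the 292 (upper bound 1.30%) and 24 of the remaining summits (0.226%). No strong summit lay in an annotated transposable element (upper bound 1.30%), against 28 of the remaining summits (0.264%). Both upper bounds lie above the shares of the remaining summits, so neither 0 is read as a difference.

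**Figure D2:**
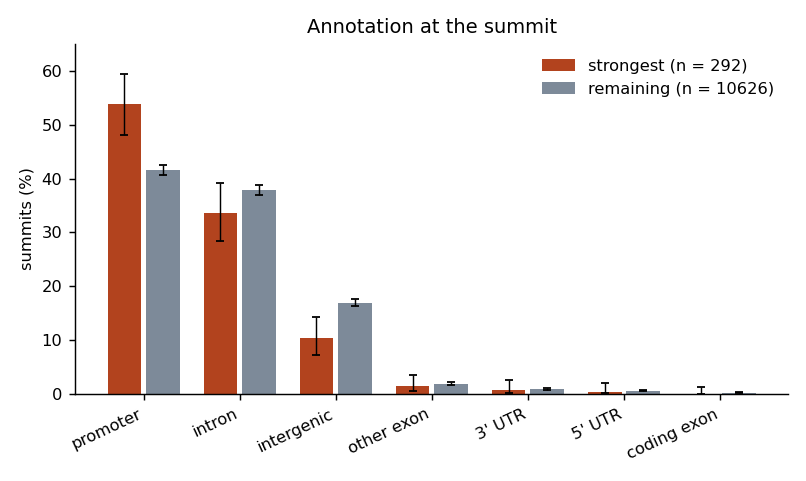
Bars give the percent of summits in each annotation class for the 292 strongest and the 10626 remaining regions, and error bars are 95% Wilson intervals. Promoters hold 53.8% of the strongest and 41.6% of the remaining summits, and intergenic sequence 10.3% and 16.9%.

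The rise in the promoter share was found only at the upper end of the list among the signal ranges examined. The share was 42.6% for signals under 200, 42.3% for 200 to 300, 41.8% for 300 to 500 and 38.2% for 500 to 1000. It was then 44.6% for 1000 to 2000, 52.7% for 2000 to 4000 and 59.2% (interval 45.2 to 71.8) for the 49 regions at 4000 or more. The interval of that last group overlaps those of both groups before it.

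Within promoters, strong summits sat farther upstream than the remaining ones as a whole, a position they shared with the range just below the threshold. Their median position relative to the nearest coding start was -151 bases, against -74.5 for the remaining promoter summits, negative being upstream. Upstream of the start lay 86.6% (interval 80.4 to 91.1) against 75.2% (73.9 to 76.4). The range from 51 to 250 bases upstream held 98 of the 157 (62.4%) against 42.9%, and the single most filled stretch, 100 to 150 bases upstream, held 39. Within 50 bases of the start lay only 11 (7.01%, interval 3.96 to 12.1) against 1284 of 4420 (27.7 to 30.4%). The median distance in either direction was 155 bases for signals of 1000 to 2000 (9.95% within 50 bases), 165.5 for 2000 to 4000 (7.03%) and 124 for 4000 or more (6.90%). Promoter summits with starts of different genes on both strands within 500 bases took a like share in both sets, 52 of 157 (33.1%) against 32.6%. Whether those genes are transcribed away from each other or overlap was not checked. Of the windows shown above, that at CG14100 was centred 98 bases upstream, that at Ugalt 35 bases upstream and that at PNPase 81 bases downstream.

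**Figure D3:**
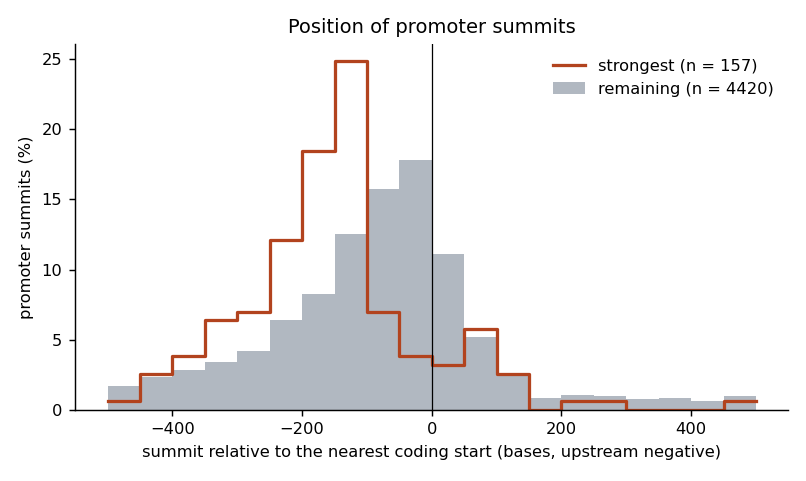
The line gives the percent of the 157 strongest promoter summits, and the bars that of the 4420 remaining ones, in each stretch of 50 bases relative to the nearest coding start, with upstream negative. The line peaks between 150 and 100 bases upstream at 24.8%, and the bars peak in the 50 bases just upstream of the start at 17.8%.

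Away from promoters, strong summits were still near genes. The 135 strong summits outside promoters lay a median of 2419 bases from a coding start, against 4059 for the remaining ones, and 38 (28.1%, interval 21.2 to 36.3) lay 501 to 2000 bases downstream of one, against 16.8%. Of the 98 in introns, 75 (76.5%) were in a first intron, against 63.8% of the remaining intronic summits. Over all summits, 15 (5.14%) lay more than 10 kb from any coding start, against 13.2%. The most distant were in lncRNA:CR46006 (55654 bases), CG42238 (40559) and tai (35036).

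Regions were wider as well as stronger. The median width was 532.5 bases (interval 520 to 546) and the widest spanned 1218 bases, against a median of 476 in the remaining list. Exactly 476 bases was the width of 49.9% of the remaining regions and of 1 strong region, so the lower median may not measure extent. The summit windows were slightly poorer in G and C, 34.0% ± 5.82 (SD, n = 292 regions) against 35.9% ± 7.48 (SD, n = 10626 regions). The means were as low in weaker ranges, 33.9% at 500 to 1000 and 33.3% at 1000 to 2000, and stood at 33.7% for 2000 to 4000 and 35.3% for 4000 or more. Within 50 bases of the summit, as in the windows shown above, the means were 29.4% and 34.7%. Among promoter summits the medians within 100 bases were 32.8% and 36.3%, and among others 33.3% and 33.8%.

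The DRE and Motif 1 were less frequent at strong promoter summits than at the remaining ones as a whole, and about as infrequent at those just below the threshold. The DRE pattern TATCGATA lay within 100 bases of 5 of the 157 strong promoter summits (3.18%, interval 1.37 to 7.24), against 375 of 4420 (8.48%, 7.70 to 9.34). Motif 1, spelled GGTCACAC, lay at 1 (0.637%, interval 0.113 to 3.52), against 5.68%. For signals of 1000 to 2000, outside the strong regions, the shares were 3.73% (interval 2.27 to 6.06) for the DRE and 0.249% (0.0439 to 1.40) for Motif 1, so neither share dropped at the threshold. Both sequences normally sit close to the start, and the strong summits sat farther away, so the search was repeated from 250 bases before to 50 after the start itself. There the DRE was at 9 (5.73%, interval 3.04 to 10.5) against 12.9%, and Motif 1 at 2 (1.27%, 0.350 to 4.53) against 10.1%. For summits 51 to 250 bases upstream, in both sets, the DRE shares were 5.10% (interval 2.20 to 11.4) and 7.96%, intervals that overlap, and Motif 1 was at 0 of 98 (upper bound 3.77%) against 4.06%. The TATA letters were in 43.9% (interval 36.4 to 51.8) against 33.1% of promoter windows, the homeodomain letters in 24.2% (18.2 to 31.5) against 16.0%, and CGGTT in 22 of 157 (9.44 to 20.3%) against 23.4%. The TATA share did not follow the signal throughout, with 42.1% at 500 to 1000, 39.8% at 1000 to 2000, 47.7% at 2000 to 4000 and 8 of 29 (27.6%, interval 14.7 to 45.7) at 4000 or more. The homeodomain share was 12.5% for signals under 200, 19.0% at 500 to 1000 and 18.4% (interval 14.9 to 22.5) at 1000 to 2000. Its interval was 18.3 to 33.2% at 2000 to 4000 and 9.85 to 38.4% at 4000 or more. Both overlap that of 1000 to 2000, so no change in this share at the threshold was shown.

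**Figure D4:**
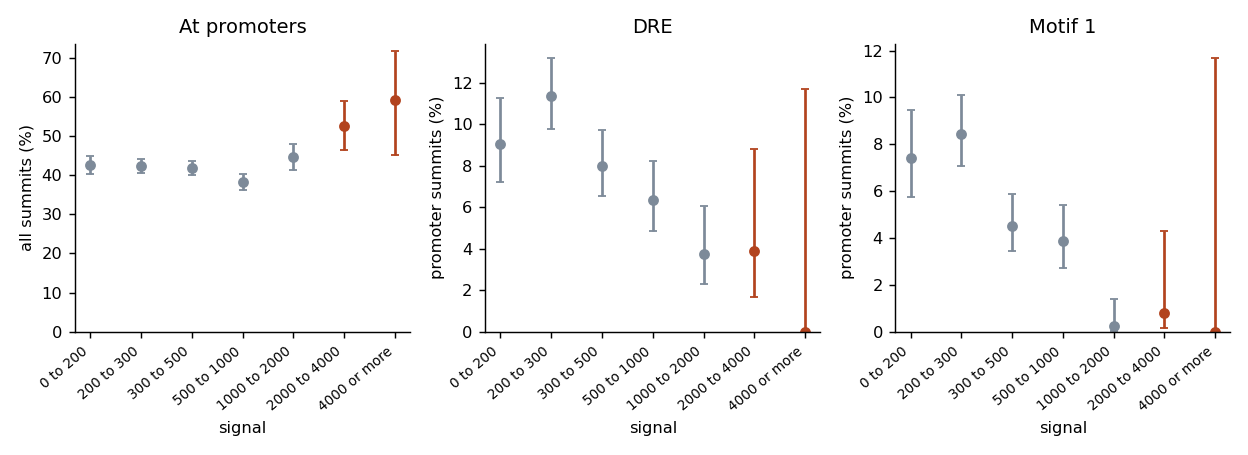
Points give, for 7 ranges of signal, the percent of all summits at promoters (left) and the percent of promoter summits with the DRE (middle) or Motif 1 (right) within 100 bases; error bars are 95% Wilson intervals and the red points are the 2 ranges of the strongest regions. The promoter share reaches 59.2% in the top range, and the DRE share is 9.06% below a signal of 200, 11.4% at 200 to 300, 3.73% at 1000 to 2000, 3.91% at 2000 to 4000 and 0 of 29 at 4000 or more.

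The exceptions are shown because they are the few strong promoters with these sequences. Each stretch is written 5′ to 3′ on the strand on which the motif reads as spelled out, from dm6 and the same RefSeq genome, with the motif in capitals. The promoter shared by Shc, an adaptor of receptor tyrosine kinases, and Atat, a tubulin acetyltransferase gene, holds a DRE (chr3L:9426940-9426987, plus strand), as do the promoter of fws and Lamtor3 (chr2L:17481198-17481245, plus strand) and that of CG11151 (chrX:13739444-13739491, plus strand). The promoter of RpL7 and Ripalpha holds Motif 1 (chr2L:10200970-10201017, minus strand).
Shc and Atat: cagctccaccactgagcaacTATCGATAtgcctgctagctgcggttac
fws and Lamtor3: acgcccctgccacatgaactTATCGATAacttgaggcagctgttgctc
CG11151: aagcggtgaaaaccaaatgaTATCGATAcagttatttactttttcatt
RpL7 and Ripalpha: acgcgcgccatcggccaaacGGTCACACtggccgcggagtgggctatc

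In these 4 promoters the motif lay 79, 75, 85 and 35 bases from the summit, in that order, and their signals were 2779, 2692, 2061 and 2040. The other strong promoters with a DRE were those of eIF6, a ribosome maturation factor (3571), and CG1827. None of the 29 promoter summits with a signal of 4000 or more had a DRE or Motif 1, which at that number allows a share of up to 11.7%.

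The strong regions were spread over the large arms and absent from chromosome 4. They numbered 60 on 2L, 55 on 2R, 65 on 3L, 69 on 3R and 43 on X, or 2.55, 2.18, 2.31, 2.15 and 1.83 per Mb, with exact Poisson intervals that all overlap (1.95 to 3.28 on 2L, 1.32 to 2.46 on X). Chromosome 4 held 0, for which the upper bound was 2.74 per Mb, above the 2.18 of all arms. It also held only 42 regions of any signal.

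Neighbouring strong regions were usually far apart. The median gap along an arm was 248 kb and the longest 2.96 Mb. Yet 42 of the 292 (14.4%, interval 10.8 to 18.9) had another strong region within 10 kb, in 20 clusters of at most 3. The closest pair, 202 bases apart, were different summits at CG9663 in regions that overlap, so the 292 regions make up 291 separate places. Other weak or strong regions were about as dense around strong summits as around the remaining ones, with a median of 3 other places within 10 kb in each set.

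The clusters of 3 lay at Atat and at hid. At the first, the summits were at 9420254 on 3L (signal 2522, an Atat promoter), 9423058 (4441, the promoter of aay, a phosphoserine phosphatase gene lying within the Atat span) and 9426885 (2779, the shared Shc and Atat promoter). The ranks in replicates 1 and 2 were 173 and 156, 40 and 27, and 95 and 230. Atat was the only gene with 3 strong summits at its promoters or in its span. At hid, an activator of cell death that ecdysone induces in larval tissues, a promoter summit (2095) was followed by intergenic ones 5032 bases upstream of hid (2128) and 6290 bases upstream of CG7320 (2058). Of the other genes, 11 held 2 strong summits each, among them ush, Hr4, osa, CHES-1-like and sbb.

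Among the 30 strongest regions, 17 lay at promoters, 8 in introns, 3 between genes and 2 in exons of noncoding RNAs. None ranked below 31 in replicate 1 or 33 in replicate 2. After those named above, the strongest promoters were CG1888 (signal 7366, ranks 3 and 4), the pair CenG1A and mRpS23 (6279, ranks 11 and 8), and the pair Ssl1, a subunit of the general factor TFIIH, and Chro, the chromatin protein Chromator (6215, ranks 9 and 14). They were followed by CG18549 (6103, ranks 14 and 11), larp, an RNA-binding protein that regulates translation (6002, ranks 12 and 12), and the pair Pex11ab and CG8320 (5785, ranks 13 and 18).

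Further down were the pair CHMP2B, an ESCRT subunit, and Tcs5 (5589), Hsp27, a small heat shock protein that ecdysone also induces (5494), mRpL41 (5456), and the pair Art3 and mRpS10 (5351). The last promoters in the group were gish, a casein kinase (5206), the pair Fbw5 and CG9147 (5153), Fkbp14, a prolyl isomerase of the secretory pathway (5036), and CG31145 (4991). Of these, Hsp27 ranked higher in replicate 2 (10) than in replicate 1 (26), and CHMP2B with Tcs5 higher in replicate 1 (15) than in replicate 2 (26).

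The strongest summit of all lay in an intron of ush, which encodes a cofactor of GATA transcription factors, and 1380 bases upstream of cbt, a zinc finger factor whose own promoter held a further strong summit (2333) 1022 bases away. After CG11050 and Lk6, a kinase that phosphorylates the cap-binding factor eIF4E, came a summit 11918 bases from CG13323 (6870, ranks 7 and 7). The next lay within osa, which encodes a subunit of the Brahma chromatin remodelling complex, at an exon of lncRNA:CR46035 (6241, ranks 10 and 13), and in an intron of Eip75B (5655, ranks 20 and 16). Intergenic summits nearest to CG31668 (5541) and eEF1gamma (5481), and intronic ones in CG32486 (5464), CG32772 (5301), CG4496 (4955) and CG12769 (4829), followed.

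A pair of noncoding RNA genes on X, lncRNA:CR44619 (4656) and lncRNA:Vinr (4463), held summits 1009 bases apart. The other off-promoter regions among the strongest 20 of that kind were nearest to CG43245 (4352) or lay in introns of LPCAT (4284), Eip78C (4158), Trl (4156), CG9663 (4034) and the overlapping genes HmgD and HmgZ, high mobility group proteins (4029). Trl encodes GAGA factor, whose recognition letters GAGAGAG were in 3.08% of strong windows (interval 1.63 to 5.75) against 4.18% of the remaining ones.

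The strong regions touched few genes. Of 13945 protein-coding genes, 217 had a start within 500 bases of a strong summit, which is 1.56%, and 329 had a strong summit at the promoter or within the span, which is 2.36%. In the whole list of 10918 regions those counts were 4936 and 5540. Neighbours that share a promoter summit cannot be told apart and were each counted. Genes with a strong summit in the span alone were long, with a median of 18.3 kb against 2.17 kb for all coding genes, so the part of gene length in the counts by span below was not tested. Among 1373 genes of 38 lists, 26 had a strong promoter summit and 52 had one at the promoter or in the span. Listed names not matched in the annotation were left out of the counts below. Matched were 34 of 42 ecdysone response names, 40 of 45 chromatin and insulator names, 16 of 18 Dpp names and 18 of 20 EGF receptor names.

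Of the ecdysone response genes, 9 of 34 held a strong summit (26.5%, interval 14.6 to 43.1), beside the 2.36% of all coding genes. By promoters alone it was 4 of 34 (11.8%, interval 4.67 to 26.6), beside 1.56%. The median length of these genes was 18.3 kb. The nuclear receptors were Eip75B, Eip78C (4158, ranks 43 and 39) and Hr4, which held a pair of strong summits (3192, ranks 86 and 86, and 2867, ranks 103 and 151). Of the other transcriptional regulators, Sox14 had a promoter summit 232 bases upstream (4314, ranks 37 and 44), and tai, a coactivator of the ecdysone receptor, an intronic one (2341, ranks 215 and 191). The remaining members were E23, a transporter (2932, ranks 141 and 71), Ldh, lactate dehydrogenase (2603, rank 192 in replicate 1 and higher in replicate 2), ImpL2, an insulin-binding secreted protein (2196, ranks 210 and 303), and hid (2095, ranks 211 and 446). Over the whole list, 27 of the 34 held a summit, as did 5540 of the 13945 coding genes.

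Of the chromatin and insulator genes, 6 of 40 held a strong summit (interval 7.06 to 29.1%), beside the 2.36% of all coding genes. Of these, 2 lay at promoters (interval 1.38 to 16.5%), beside 1.56%, which that interval includes. Those were Chro and Cp190, an insulator protein (2304), and the others lay in the spans of osa, Trl, Mi-2, a nucleosome remodeller (3361), and mod(mdg4), an insulator protein (2204). Mi-2 shared its summit with Su(Tpl), which overlaps it. Polycomb and Trithorax genes had 2 of 26, at ph-p, a subunit of Polycomb repressive complex (3627), and trx, a histone methyltransferase (2559), with an interval of 2.14 to 24.1% that includes 2.36%. That list did not hold osa or Trl, which were counted only with the chromatin and insulator genes.

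Signalling genes held strong summits mostly in their spans, and the shares below stand beside the 2.36% of all coding genes. Of the Dpp pathway, the fly BMP pathway, 3 of 16 did (18.8%, interval 6.59 to 43.0), all away from promoters. They were the receptors wit (2559, ranks 128 and 240) and tkv (2237, ranks 241 and 219) and the transcription factor shn (2347, ranks 220 and 180). Dad, an inhibitor of the same pathway whose intron held a strong summit (2457, ranks 166 and 225), was not among the 16 genes counted. Of the Notch pathway it was 3 of 29 (10.3%, interval 3.58 to 26.4), at gro, a corepressor (2337), neur, a ubiquitin ligase for Notch ligands (2292), and kuz, a Notch-cleaving protease (2056). Of the Hippo pathway it was 2 of 18 (11.1%, interval 3.10 to 32.8), in crb, an apical polarity protein (3432), and ex, an upstream activator (2238). Insulin and TOR genes had 2 of 25, Lk6 and REPTOR, a transcription factor repressed by TOR (2921), and heat shock genes 2 of 25, Hsp27 and Hsp83 (2321). The lower bound of both intervals was 2.22%, so both include 2.36%.

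Single members were found in several lists. They were sgg, the kinase Shaggy (2507), of the Wingless pathway, aop, an ETS repressor (2016), of the EGF receptor pathway, Ptp61F, a phosphatase (2344), of the JAK-STAT pathway, and cbt of the JNK list. They were also CycE, a cyclin (2241), of the cell cycle, Lpin, the fat metabolism gene Lipin (4351), of the fat body list, and elav, a neuronal RNA-binding protein (2464), of the neuronal list. The muscle list held Msp300 (2994) and kirre, a myoblast fusion receptor (2234), and the axon and dendrite list held lola (2303) and trio, a guanine nucleotide exchange factor (2154). The actin and adhesion list held crb and Msp300, and the vacuolar ATPase list held Vha100-2 (2388). The GATA, hemocyte, cell death and circadian lists held 1 each through ush, hid and sgg, named above. For each of these lists except that of GATA factors and cofactors (1 of 6 genes) the interval reached down to or below 2.36%, and the numbers are small. Raf, a kinase of EGF receptor signalling, and Mkk4, a kinase of JNK signalling, were not among the genes counted. Strong summits lay in an intron of Raf (3334) and at the promoter shared by Mkk4 and SLIRP2 (3340).

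Mitochondrial ribosomal protein genes had 5 of 75 (6.67%, interval 2.88 to 14.7), all at promoters, beside 1.56%. These were mRpS23 (6279), mRpL41 (5456), mRpS10 (5351), mRpL23 (3922) and mRpL24 (2093), of which mRpS23, mRpS10, mRpL23 and mRpL24 shared the summit with a neighbour. Cytosolic ribosomal protein genes had 2 of 93 (2.15%, interval 0.592 to 7.51, which includes 1.56%), RpS27 (2090) and RpL7 (2040). Both ranked near the end of the strong regions, 264 and 283. In the whole list 76 of the 93 held a promoter summit, as did 4936 of the 13945 coding genes. A strong summit was held by 2.63% of those 76, beside 5.94% of all coding genes with a summit. Translation factors had 2 of 51, eIF6 (3571) and eIF4EHP (2154), with an interval of 1.08 to 13.2% that also includes 1.56%.

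Other lists had no strong summit. Proteasome genes had 0 of 48 (upper bound 7.41%), respiratory chain genes 0 of 88 (4.18%) and disc patterning genes 0 of 44 (8.03%). In the whole list 23, 40 and 23 of them, in that order, held a summit. Of the 5540 coding genes with a summit there, only 5.94% held a strong one, so a count of 0 among so few is not read as a shortage. The cytochrome c genes were not among those 88 respiratory chain genes. Strong summits lay in an intron of Cyt-c-p (2460) and at the promoter shared by Cyt-c-d and CG31808 (2131). Aminoacyl-tRNA synthetase and Rab genes had 0 of 31 and 0 of 36, with 18 and 19 in the whole list. Hox, glial, and salivary glue and late puff genes had 0 of 8, 0 of 13 and 0 of 21, with 4, 6 and 0 in the whole list. Cuticle protein genes had 0 of 137 (upper bound 2.73%) and chemoreceptor genes 0 of 179 (2.10%), with 6 and 4 in the whole list. Of these upper bounds, that of the chemoreceptor list alone fell under the 2.36% of all coding genes.

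**Figure D5:**
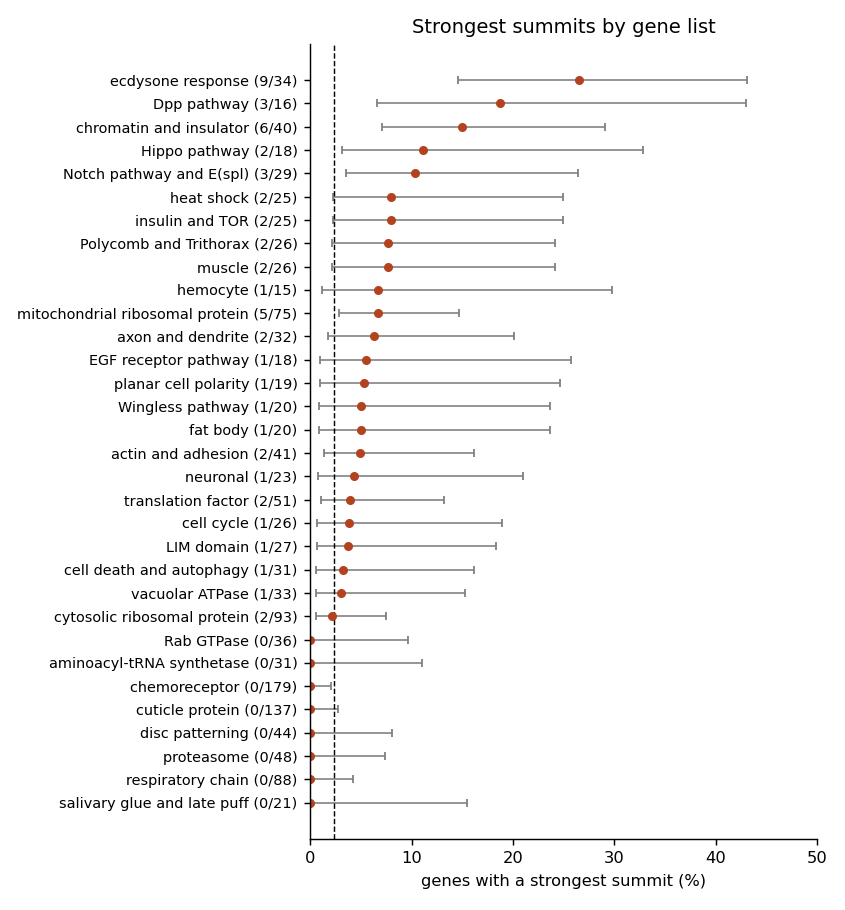
Points give, for the 32 lists with 15 or more annotated genes, the percent of genes with a strong summit at the promoter or in the span, with the counts in parentheses; error bars are 95% Wilson intervals and the dashed line marks the 2.36% of all coding genes. The ecdysone response, Dpp pathway and chromatin and insulator lists lie highest, and 8 lists lie at 0.

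The planar cell polarity list held a strong summit only in esn itself, 1 of 19 genes (interval 0.935 to 24.6%, which includes 2.36%). The same gene was the only one of the 27 LIM domain genes (interval 0.657 to 18.3%, which also includes 2.36%). That summit lay in an intron 4201 bases upstream of the nearest coding start of esn (signal 2120, ranks 265 and 260). The animals carried added esn sequence, so copies of the transgene and binding at the native gene cannot be told apart.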

How the data were processed

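ChIP-seq regions from 2 biological replicates of 1 group were used as the authors deposited them. Per the deposited file descriptions, the authors called regions in each replicate and in both pooled, against a control file, and derived a list by the irreproducible discovery rate (IDR), on dm6 and dm3. Neither the caller, nor its version, nor the IDR threshold was stated (not given in the sources used here). Signal, as deposited, has no stated scale. Summit offsets were taken from the deposited files and count bases from the region's start, a unit with no other name. Of 10936 dm6 regions, 10918 on the arms were used, and replicate ranks were taken among arm regions of each list of 30000 (29978 on the arms for replicate 2).

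Regions with a signal of 2000 or more were compared with the remaining ones. Summits were annotated with Ensembl release 115 (BDGP6.54) and sequence came from the RefSeq Release 6 genome. Calculations used Python 3.11.15, numpy 2.4.6, pandas 2.3.3 and scipy 1.17.1, and plots matplotlib 3.10.9. The scripts were tested on simulated data. Where classes overlapped, promoters took precedence, then 5′ UTRs, then coding exons, then 3′ UTRs, then other exons, then introns. Overlap meant 1 base or more. Shares have Wilson intervals and medians binomial order-statistic intervals, at 95%. The members, gene lists and motifs were chosen with earlier results of these data known, and no test was made over regions or genes.

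Named genes were those at the 30 strongest regions and the 20 strongest away from promoters, up to 5 per gene list, genes with 3 or more strong regions, the regions beside the threshold, the 5 with the largest difference of rank, and esn. Members of lists with more than 5 strong genes, genes sharing a summit or cluster with a named gene, the most distant summits, the genes with a DRE or Motif 1, further genes holding a pair of strong regions, and the genes and sequences of the closing observations were named after their values were seen. So were the genes given as not counted in a list, which were ds, Raf, Mkk4, Dad, Cyt-c-p and Cyt-c-d. Alternatives changed the threshold, replicate, distances, windows and overlap rule, counted runs of overlapping regions, or used dm3. Motif windows at the start itself, and at summits 51 to 250 bases upstream, were added after the data were seen.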

Additional observations from a re-analysis of the deposited data

How the results depend on the processing

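With a threshold of 3000 the median distance to a coding start was 255.5 bases, G+C 35.1%, the median width 577.5 bases, the share with another strong region within 10 kb 6.12% and Motif 1 at 0% of promoter summits. With a threshold of 1500 the width was 507 bases and the share within 10 kb 23.8%. A promoter limit of 250 or 1000 bases gave promoter shares of 42.1% and 63.7%, and neighbour distances of 5 and 20 kb gave 10.3% and 21.2%. Within 50 bases of the summit G+C was 29.4% and the DRE at 0.637% of strong promoter summits, against 34.7% and 4.77% in the remaining list. At summits 51 to 250 bases upstream Motif 1 was at 0%. Counted by promoter or span, 52 listed genes held a strong summit in place of 26. With the strongest 292 regions of 1 replicate alone, the promoter share was 54.1 to 54.5%, the intron share 31.2 to 32.9%, the distance 341.5 to 357.5 bases, G+C 33.0 to 34.5%, the width 484 to 543 bases, the share within 10 kb 14.7 to 16.1%, the DRE share 2.52 to 3.80% and Motif 1 0 to 0.633%. The cause of these shifts was not tested. The other 39 of 57 values stayed within the interval of the reported value, or within 1.5 times a reported count. The dm3 list also held 292 strong regions. No paired analysis was possible because the series has a single group.

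The depth of the libraries is unknown and the signal has no stated scale, so the threshold has no meaning outside this list. With 292 regions, shares of a few percent rest on a handful of regions, and the 49 regions at 4000 or more give wide intervals. Regions of 1 list share their libraries. No untagged sample was used, so the values describe recovery with GFP-tagged espinas in this pair of libraries.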

Other observations

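The genes of glycolysis, its side branches and glycogen metabolism were listed after their values had been seen, so their count supports nothing by itself. Of 22 such genes, 8 held a strong summit (36.4%, interval 19.7 to 57.0), beside 2.36% of all coding genes, and 18 held a summit in the whole list. The glycolytic enzymes were Gapdh2, glyceraldehyde-3-phosphate dehydrogenase (4399), Eno, enolase (3277), Pgk, phosphoglycerate kinase (2724), Ldh (2603) and Hex-A, hexokinase (2284). All but Pgk held the summit at their promoter. That of Pgk lay in its span and was placed at the promoter of Bacc, 446 bases upstream of a Bacc start. Zw, the first enzyme of the pentose phosphate pathway, held a strong summit in an intron (3837). Of glycogen metabolism, Gbs-70E, a glycogen-targeting phosphatase subunit (2226), and Glyp, glycogen phosphorylase (2094), held promoter summits.

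A short word stood out among all 7-letter words counted within 100 bases of the summits, and it too was found by looking at these data, with no test. The word CTACGCC, or its reverse complement GGCGTAG, was in 20 of the 292 windows (6.85%, interval 4.48 to 10.3) and in 92 of the remaining 10626 (0.866%). Its share was 1.44% for signals of 1000 to 2000, 4.94% for 2000 to 4000 and 8 of 49 (16.3%) at 4000 or more. In 18 of the 20 strong windows the word went on as CTACGCCNNTG, against 44 of the 92 in the remaining list. By annotation, 17 of the 20 windows were at promoters. A run of CCCC lay in the 25 bases before the word in 12 of the 20 windows, against 28 of the 92. The word lay a median of 69 bases from the summit in the strong windows and 56.5 bases in the remaining ones.

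The 8 strongest of these regions with a sequence shown are printed so that the letters around the word can be compared. Each is written 5′ to 3′ on the strand on which the word reads CTACGCC, which is in capitals, from dm6 and the RefSeq Release 6 genome. They are at CG14100 (chr3L:19590655-19590704, plus strand), Ugalt (chrX:2703938-2703987, plus strand), CHMP2B and Tcs5 (chr3L:5139542-5139591, plus strand), CG32486 (chr3L:3060855-3060904, plus strand), CG9663 (chr2L:3302207-3302256, plus strand), CG5611 and Mtl (chr3R:27636062-27636111, minus strand), mRpL23 and CG9004 (chr3L:2373511-2373560, minus strand) and CG3437 and CG3552 (chr3L:9457696-9457745, minus strand).
CG14100: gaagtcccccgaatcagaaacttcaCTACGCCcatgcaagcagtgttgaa
Ugalt: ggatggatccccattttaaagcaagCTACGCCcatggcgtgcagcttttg
CHMP2B and Tcs5: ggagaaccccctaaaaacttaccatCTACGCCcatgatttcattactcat
CG32486: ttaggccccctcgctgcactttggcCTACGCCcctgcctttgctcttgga
CG9663: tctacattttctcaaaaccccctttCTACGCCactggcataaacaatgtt
CG5611 and Mtl: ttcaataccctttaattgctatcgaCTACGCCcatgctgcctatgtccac
mRpL23 and CG9004: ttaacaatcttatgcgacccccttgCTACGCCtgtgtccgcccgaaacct
CG3437 and CG3552: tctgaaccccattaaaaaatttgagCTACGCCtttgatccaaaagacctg

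In all 8 the letters TG follow the word after 2 further bases. The 6-letter word AAGGGG, or CCCCTT, was in 47 of the 292 windows (16.1%, interval 12.3 to 20.7) against 6.56% of the remaining ones, and in 24.5% at signals of 4000 or more.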
